A study of Homo sapiens with 5 samples.

Results

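The genes described here are 45 genes of DNA replication, from the loading of the replicative helicase at origins to the supply of nucleotides at the fork. They were listed by name and role, with no threshold on their measured values but with earlier results of these data known, and were matched on the gene name in the study's gene table and then on the gene identifier in the count files. All 45 were found among the 64837 entries and all 45 passed the filter on low counts that left 20360 genes for testing. The cells were NCI-H209, an established cell line from a human small-cell lung cancer (SCLC), cultured alone and labelled as untreated (control, n = 3) or kept for 24 h in a Transwell chamber with human brain microvascular endothelial cells (HBMECs) (co-cultured, n = 2). HBMECs line the small vessels of the brain, and the chamber let the cells share medium without mixing. Both groups were the same cell line without any introduced allele, and no source used here says whether the control cultures carried an empty insert. RNA of the tumor cells alone was sequenced as directional, rRNA-depleted libraries, and every value below is from these counts. Per the study's methods, HBMECs were grown with an added serum supplement (Nu-serum) and NCI-H209 cells without it, and the medium of the co-culture is not named. A difference in medium could not be told apart from an effect of the endothelial cells. The comparison asks how the transcripts of the replication machinery differed after a day of shared medium with brain endothelial cells.

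Replication starts from origins that are licensed in G1. The origin recognition complex (ORC) marks the origin, CDC6 and CDT1 load the ring-shaped MCM2-7 helicase onto it, and geminin (GMNN) holds CDT1 in check so that no origin is licensed again in the same cycle. In S phase, CDC45 and the GINS complex join MCM2-7 to make the active helicase, MCM10 helps to start it, and polymerases alpha, delta and epsilon copy the strands with the sliding clamp PCNA, which the RFC complex loads. SCLC cells divide fast, and most have lost RB1 function, which otherwise holds back the E2F factors that drive many of these genes.

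The libraries held 15457071 to 19157348 counts on genes. Control replicate 1 stood apart from the other control libraries, since the second principal component (18.3% of the variance) separated it while the first (64.7%) separated the groups. The share of reads left unmapped was 8.13% to 8.48% in control but 15.9% and 16.8% in the co-cultured libraries. That of reads mapped outside annotated exons was 47.3%, 51.2% and 49.6% in control and 40.1% and 40.8% in the co-cultured libraries. The libraries carried their labels' cell type: INSM1, a transcription factor of neuroendocrine cells, was at 498 to 636 CPM (the count relative to the TMM-scaled size of the library), whereas CHGA was at no more than 1 count. Of 16 endothelial markers, PLVAP and ECSCR were at 0 in every library, 7 markers had no more than 3 counts in any library, and the summed level was 9.57 to 19.4 CPM in control against 13.0 to 13.1 CPM in co-cultured cells. Of the 8 endothelial markers tested, ESAM alone rose, from 0.229 to 1.04 CPM (21 and 14 counts in the co-cultured libraries), and not without co-cultured replicate 1 (edgeR adjusted p = 0.0968). The part of the unmapped reads, of the reads outside exons and of endothelial RNA in the results below was not tested. The labels do not say whether the libraries came from separate cultures, so p-values measure only the spread between these libraries, which may be technical. In such bulk RNA, fewer cells in S phase and less RNA per cell cannot be told apart.

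The replication genes moved in both directions in the co-cultured cells, each by a modest amount. Of the 45 genes, 8 rose (CDC6, PCNA, RFC2, RFC5, FEN1, TYMS, RRM1 and TK1) and 11 fell (ORC3, MCM2, MCM5, MCM7, GINS2, PRIM1, POLD1, POLE, POLE2, RFC3 and LIG1), by the quasi-likelihood test of edgeR with p-values adjusted over all 20360 genes by the Benjamini-Hochberg method and a threshold of 0.05. These 19 calls are 42.2% of the genes, beside 33.4% of all genes tested, of which 18.4% rose and 15.0% fell. With upper-quartile scaling, 3076 genes of the table rose and 3929 fell, in place of 3750 and 3059. The median log2 fold change (co-cultured over control) was -0.06 for the 45 genes and -0.03 for all genes tested. The study's methods ask of a differentially expressed gene an absolute fold change above 1 and a p below 0.05, without naming the scale. Read here on the log2 scale with a raw p, this criterion was met by none of the 45, beside 10.5% of all genes tested. DESeq2 also gave 0, and 19 of the 45 had a raw p below 0.05, beside 44.2% of all genes. The co-cultured libraries did not overlap the control libraries in 27 of the 45, with 13 above and 14 below, beside 59.4% of all genes (29.4% above and 30.0% below). For the 26 genes not called, the log2 fold changes ran from -0.19 to 0.19 and the 95% intervals lay between -0.56 and 0.51.

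**Figure D1:**
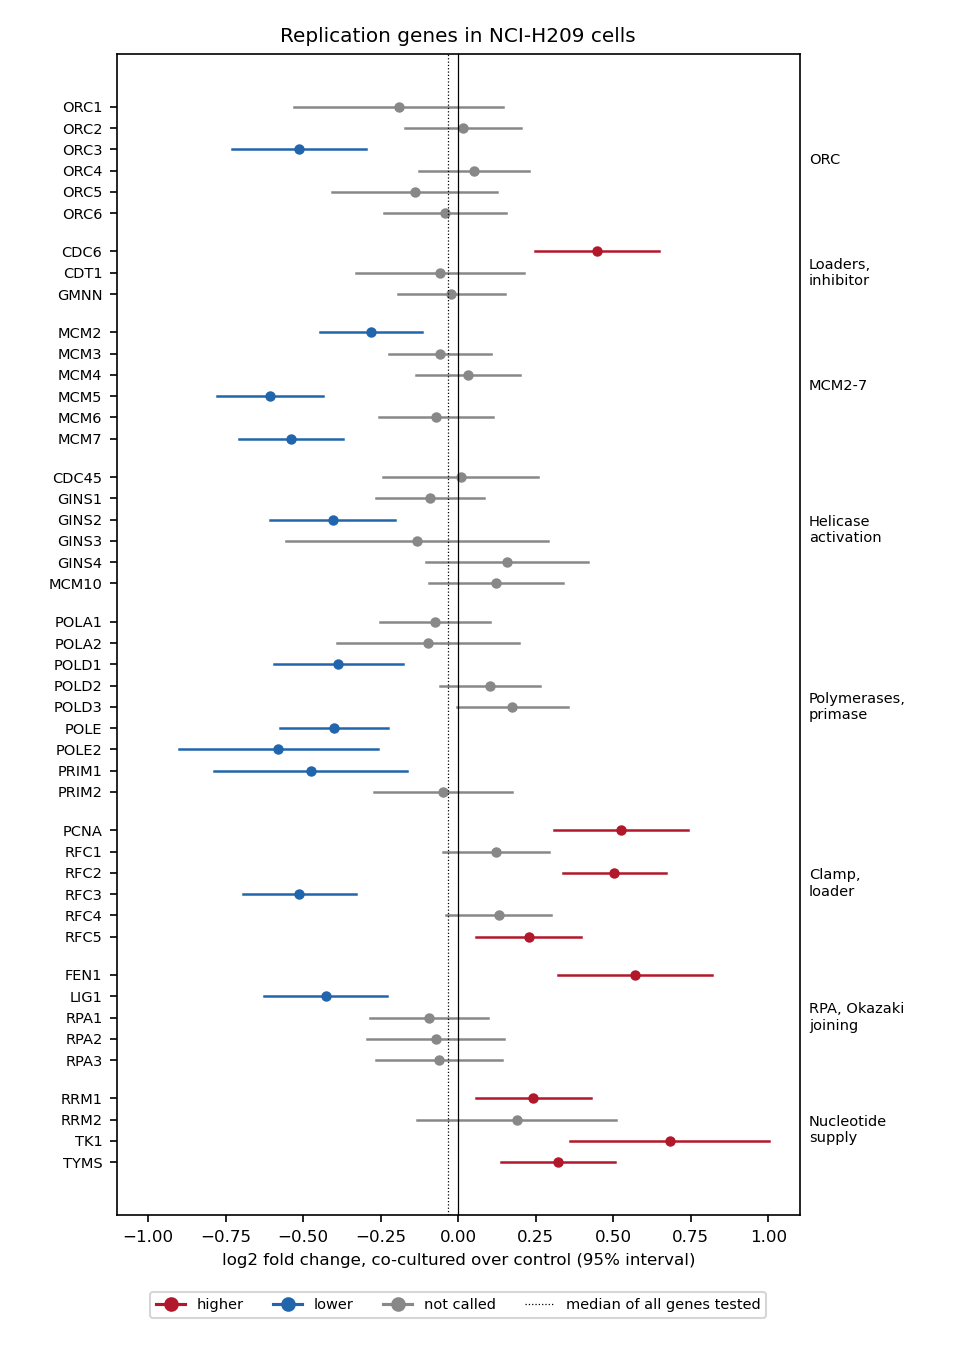
Log2 fold change of each of the 45 replication genes (horizontal axis, co-cultured over control, points) with its 95% interval (lines), ordered by role, with red for genes that rose, blue for genes that fell and grey for genes not called. The 8 rises lie mostly in the clamp, loader and nucleotide groups, and 3 of the 11 falls are MCM2-7 subunits.

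The summed level of the 45 genes was 4662, 4479 and 4582 CPM in the control libraries and 4713 and 4622 CPM in the co-cultured libraries, so the groups overlapped. Summed as CPM per kb of exon, the values were 1255, 1182 and 1213 in control and 1328 and 1305 in co-cultured cells, without overlap. The role groups of genes within the CPM sum went different ways. The MCM2-7 sum fell out of the control range, from 1043, 1047 and 1055 CPM to 949 and 919 CPM, whereas the nucleotide supply sum lay above it, at 1129 and 1114 CPM after 1000, 856 and 906 CPM. The clamp and clamp loader sum was also higher, at 716 and 708 CPM after 619, 580 and 586 CPM. So was that of CDC6, CDT1 and GMNN, at 229 and 227 CPM after 202, 208 and 222 CPM. In it the CDC6 mean rose from 60.4 to 82.4 CPM, whereas CDT1 went from 95.5 to 91.7 and GMNN from 54.6 to 53.7 CPM. The ORC sum was lower, at 251 and 257 CPM after 273, 285 and 287 CPM, with the ORC3 mean at 58.0 after 82.8 CPM. The polymerase and primase sum was also lower, at 701 and 681 CPM after 742, 798 and 772 CPM, with the POLE mean at 163 after 215 CPM. Such sums can follow 1 gene and do not show that a group moved as a whole. The helicase activation sum and that of RPA1 to RPA3, FEN1 and LIG1 overlapped control.

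Among the transcripts, the levels spanned a wide range. They are given as CPM per kb of exon, with the length taken as the union of all annotated exons of a gene. That union runs to 16609 bases for POLE and 7338 for MCM5, and can exceed the length of the transcript expressed. The order of genes, and the ratios and shares below, therefore also depend on the annotation. On this scale, TYMS was the highest in control at 193 ± 10.3 (SD, n = 3), followed by PCNA at 130 ± 13.9, RRM1 at 69.1 ± 4.28 and MCM3 at 65.7 ± 0.415. The median gene was at 21.1, and the lowest were ORC1 at 4.75, GINS4 at 4.22 and GINS3 at 2.37 ± 0.511. Of the 44 pairs of neighbours in this order, 34 overlapped in the range of their control libraries. GINS3, a GINS subunit, was at 14.7, 9.51 and 12.0 CPM in control and 10.3 and 11.8 CPM in co-cultured cells, with overlapping groups.

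**Figure D2:**
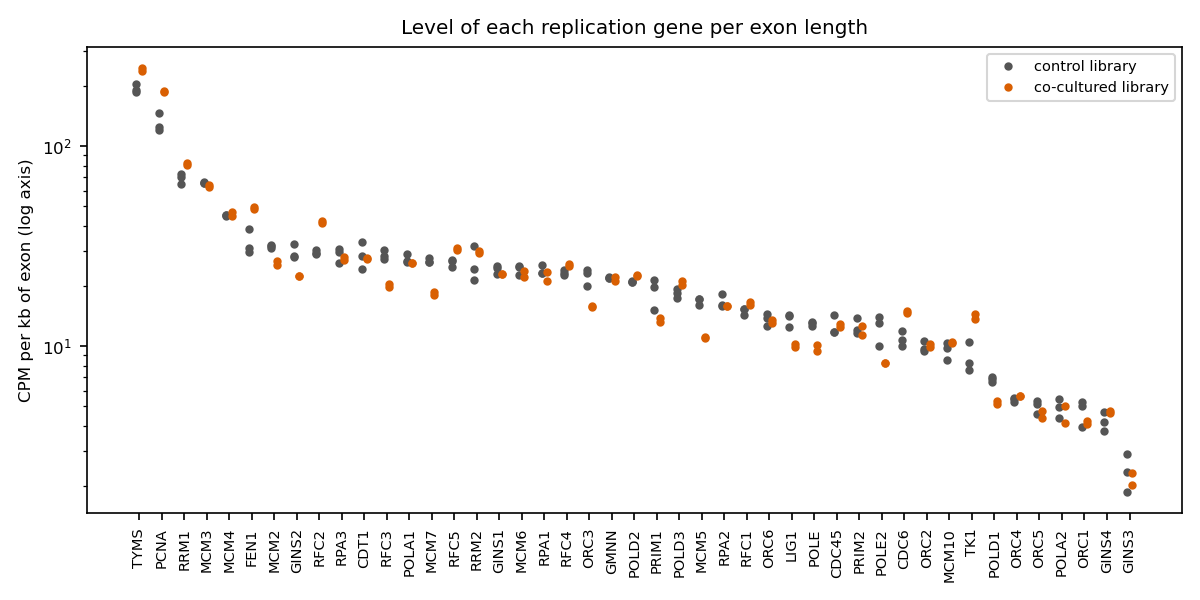
Level of each replication gene in each library, in CPM per kb of exon on a log axis, ordered by the control mean, with grey points for the 3 control and orange points for the 2 co-cultured libraries. TYMS and PCNA stand at the top and GINS3 at the bottom, and the shift with co-culture is small beside the range between genes.

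Many replication genes carry binding sites for E2F factors close to their start, so the upstream sequences of genes that fell and of genes that rose are set side by side here. The sequences are from RefSeq (GRCh38.p14), which held windows of 250 bases before to 50 bases after the start for 39 of the 45 genes, 50 windows in all. The E2F-type motifs searched, on both strands and counting overlaps, were TTTCCCGC, TTTCGCGC, TTTGCCGC and TTTGGCGC. Capitals mark a match, and each stretch reads 5′ to 3′ with the gene and ends before the RefSeq start of its window. MCM7, RFC3, GINS2, POLE and LIG1 fell, PCNA, TYMS and TK1 rose, and MCM6 was not called.
MCM7, chr7:100101398-100101426, minus strand: cggtcacgtggggggcgacgTTTCGCGCc
RFC3, chr13:33818081-33818110, plus strand: agatttggagctcGCGGGAAAacttgtctc
GINS2, chr16:85688977-85689074, minus strand: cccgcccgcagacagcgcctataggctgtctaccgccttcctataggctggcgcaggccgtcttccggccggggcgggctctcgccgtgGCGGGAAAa
POLE, chr12:132687353-132687472, minus strand: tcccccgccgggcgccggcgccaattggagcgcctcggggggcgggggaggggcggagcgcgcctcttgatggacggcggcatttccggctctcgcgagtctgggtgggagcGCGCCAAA
LIG1, chr19:48170441-48170468, minus strand: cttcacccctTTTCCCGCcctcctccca
PCNA, chr20:5126627-5126782, minus strand: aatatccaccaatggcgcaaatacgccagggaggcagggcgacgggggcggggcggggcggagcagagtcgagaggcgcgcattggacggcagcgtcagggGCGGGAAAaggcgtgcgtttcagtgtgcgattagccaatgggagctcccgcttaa
TYMS, chr18:657533-657621, plus strand: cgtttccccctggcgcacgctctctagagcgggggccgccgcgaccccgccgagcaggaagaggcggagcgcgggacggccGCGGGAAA
TK1, chr17:78187234-78187312, minus strand: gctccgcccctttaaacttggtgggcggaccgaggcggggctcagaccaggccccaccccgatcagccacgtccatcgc
MCM6, chr2:135876444-135876603, minus strand: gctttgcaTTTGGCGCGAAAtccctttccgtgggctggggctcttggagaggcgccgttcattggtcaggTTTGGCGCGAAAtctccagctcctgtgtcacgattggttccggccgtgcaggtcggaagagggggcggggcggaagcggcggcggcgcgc
The stretches of MCM7, RFC3 and LIG1 are 28 to 30 bases long and lie wholly within GENCODE exons of their gene. Those of PCNA, TK1 and MCM6 hold no exon base of their gene. At least 1 match was in 19 of the 50 windows (38%), beside 1164 of all 35116 windows (3.31%). Matches were in the windows of 8 of the 10 genes that fell and had a window (MCM2, MCM7, ORC3, POLE, POLE2, RFC3, GINS2 and LIG1), 3 of the 8 that rose (CDC6, PCNA and TYMS) and 8 of the 21 not called. POLD1 and PRIM1 fell without a match and are not printed. Of the genes printed, the log2 fold change was -0.07 for MCM6, with matches at both of its TTTGGCGCGAAA stretches, and -0.54 for MCM7. It was 0.68 for TK1, without a match in the window shown. Whether a match goes with the direction of change was not tested. The CCAAT motif was in 58% of the windows, beside 34.6% of all windows. A match describes letters in a window and is not evidence of a bound factor.

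Within the licensing genes (15 genes of ORC, loaders, inhibitor and MCM2-7), 1 rose and 4 fell, and the median log2 fold change was -0.06. These calls were 33.3% of the 15, beside 33.4% of all genes tested. The largest falls of the MCM2-7 ring were in MCM5 and MCM7. MCM5 (chr22:35400063-35425430, GRCh38, plus strand) was at 118, 126 and 126 CPM in control and 81.5 and 80.9 CPM in co-cultured cells. The co-cultured libraries lay well below all control libraries, and the log2 fold change was -0.61 (SE 0.0758, edgeR adjusted p = 0.000495), a decrease to 0.66 of the control level. MCM7 (chr7:100092728-100101940, minus strand) was at 121, 115 and 116 CPM in control and 79.1 and 82.2 CPM after co-culture, again without overlap. Its log2 fold change was -0.54 (SE 0.0748, edgeR adjusted p = 0.000851), and its introns hold the MIR25, MIR93 and MIR106B genes, which had at most 16 counts. MCM2 was at 155, 153 and 157 CPM in control and 130 and 125 CPM in co-cultured cells, a smaller fall of 0.28 on the log2 scale (SE 0.0734, edgeR adjusted p = 0.0172). The MCM2 call was lost without control replicate 3 (adjusted p = 0.0626), co-cultured replicate 1 (0.109) or co-cultured replicate 2 (0.182), and with the replicate block (0.152). The other subunits of the ring did not pass the test. MCM6 had a log2 fold change of -0.07 (95% interval -0.26 to 0.11), MCM3 of -0.06 (-0.22 to 0.11) and MCM4 of 0.03 (-0.14 to 0.20), so the intervals of these 3 leave out a fall as large as that of MCM5. The sign for MCM4 turned with upper-quartile scaling (-0.05).

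The subunits of the ring, present in equal number in the protein complex, thus shifted in their transcript ratios. Per kb of exon, MCM5 stood to MCM4 at 0.358, 0.385 and 0.382 in the control libraries and at 0.237 and 0.246 in the co-cultured libraries, and MCM7 to MCM4 at 0.609, 0.588 and 0.586 against 0.385 and 0.418. The share of MCM5 in the summed MCM2-7 level per kb went from 8.02% ± 0.264 (SD, n = 3) in control to 5.91% ± 0.103 (n = 2) with co-culture, and that of MCM7 from 12.7% ± 0.362 to 9.82% ± 0.481. MCM3 took 31.3% ± 0.324 of the ring in control and 33.7% ± 0.0362 in co-cultured cells, and MCM4 took 21.4% ± 0.168 and 24.5% ± 0.206. These ratios and shares, and those below, were set up after the values were seen and are given without a test.

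**Figure D3:**
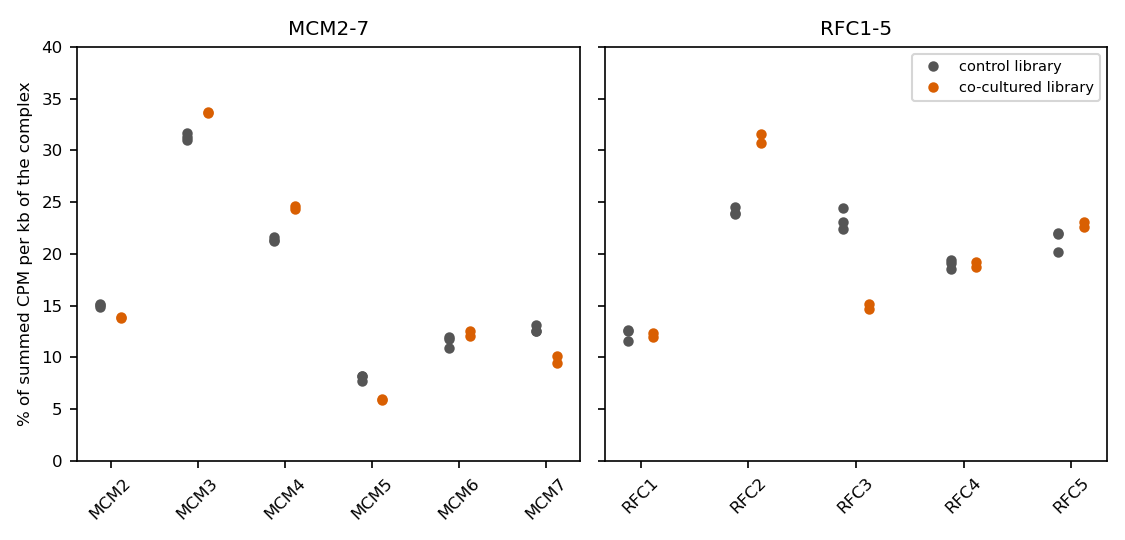
Share of each subunit in the summed level per kb of exon of its complex, in percent, for MCM2-7 (left) and RFC1-5 (right), with grey points for the 3 control and orange points for the 2 co-cultured libraries. MCM5 and MCM7 lose share in the ring while MCM3 and MCM4 gain it, and RFC2 and RFC3 part from nearly equal shares to 31.2% and 14.9%.

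Of the loaders, CDC6 rose and CDT1 and its inhibitor did not pass the test. CDC6, the ATPase that joins ORC to bring in the helicase, was at 66.0, 59.6 and 55.7 CPM in control and 83.0 and 81.8 CPM in co-cultured cells. Every co-cultured value lay above every control value, and the log2 fold change was 0.45 (SE 0.0888, edgeR adjusted p = 0.0048). Without co-cultured replicate 1 or 2 the CDC6 value stayed at 0.45 and 0.46, with adjusted p of 0.0548 and 0.0515. CDT1 was at 81.3, 94.0 and 111 CPM in control and 91.1 and 92.4 CPM in co-cultured cells, which lay inside the control range (log2 fold change -0.06, 95% interval -0.33 to 0.21). GMNN was at 54.4, 54.3 and 55.1 CPM in control and 55.0 and 52.4 CPM in co-cultured cells, with an interval from -0.20 to 0.15. The ratio of CDT1 to GMNN per kb was 1.11, 1.29 and 1.495 in control and 1.23 and 1.31 in co-cultured cells.

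In the origin recognition complex, 1 of 6 subunits fell and none rose (16.7% called, beside 33.4% of all genes tested). The median log2 fold change was -0.09. ORC3, a core subunit, was at 73.8, 86.0 and 88.5 CPM in control and 57.7 and 58.3 CPM in co-cultured cells. All control libraries were higher, with control replicate 1 the nearest, and the log2 fold change was -0.51 (SE 0.0954, edgeR adjusted p = 0.00351). Leaving out co-cultured replicate 1 took ORC3 past the threshold (-0.50, adjusted p = 0.0596). ORC1, the largest ORC subunit, was at 12.4, 15.9 and 16.6 CPM in control and 13.3 and 12.9 CPM in co-cultured cells, with overlapping groups (log2 fold change -0.19, edgeR adjusted p = 0.353). Without control replicate 1 it passed the test at -0.31 (adjusted p = 0.0335). ORC5 was at 19.1, 19.8 and 17.1 CPM in control and 16.2 and 17.6 CPM in co-cultured cells and did not pass (-0.14). ORC2, ORC4 and ORC6 had values from -0.04 to 0.05. Per kb, CDC6 stood to ORC3 at 0.594, 0.460 and 0.417 in control and at 0.956 and 0.931 in co-cultured cells.

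Among the 6 genes that turn the loaded ring into the moving helicase, 1 fell and none rose (16.7% called, beside 33.4% of all genes). GINS2, a subunit of the GINS tetramer, was at 106, 91.4 and 92.0 CPM in control and at 72.9 CPM in both co-cultured libraries. It fell by 0.40 on the log2 scale (SE 0.0896, edgeR adjusted p = 0.00808), and the adjusted p was 0.0835 without co-cultured replicate 1 and 0.0882 without co-cultured replicate 2 at the same fold change of -0.40. The other GINS subunits gave values of -0.09 (GINS1), -0.13 (GINS3) and 0.16 (GINS4), and none passed. GINS4 was at 25.7, 20.6 and 23.0 CPM in control and 26.1 and 25.5 CPM in co-cultured cells, and MCM10 at 56.7, 46.8 and 53.1 CPM and 56.7 and 56.9 CPM. In both, control replicate 1 was level with the co-cultured libraries. Without it, GINS4 passed the test at 0.24 (adjusted p = 0.0408) and MCM10 at 0.19 (adjusted p = 0.0439). CDC45 had a log2 fold change of 0.01 (95% interval -0.24 to 0.26).

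Of the 9 polymerase and primase genes, 4 fell and none rose (44.4% called, beside 33.4% of all genes tested). Members of the alpha-primase, delta and epsilon complexes were among the falls. POLE, the catalytic subunit of the leading-strand polymerase epsilon, was at 220, 216 and 210 CPM in control and 169 and 157 CPM in co-cultured cells. The groups lay far apart for this long transcript (log2 fold change -0.40, SE 0.0776, edgeR adjusted p = 0.0043). POLE2, its second subunit, was at 29.5, 41.4 and 38.6 CPM in control and 24.5 and 24.3 CPM in co-cultured cells, with control replicate 1 nearest to the co-cultured libraries. Its log2 fold change was -0.58 (SE 0.143, edgeR adjusted p = 0.013), and up to 15.3% of its reads lay on the opposite strand. POLD1, the catalytic subunit of the lagging-strand polymerase delta, was at 34.8, 32.6 and 33.9 CPM in control and 26.4 and 25.2 CPM in co-cultured cells (-0.39, SE 0.0923, edgeR adjusted p = 0.0113). The accessory subunits of delta were higher than control in both co-cultured libraries without passing the test, at 0.17 for POLD3 (adjusted p = 0.123) and 0.10 for POLD2 (0.308). PRIM1, the catalytic primase subunit, had a log2 fold change of -0.48 (SE 0.138, edgeR adjusted p = 0.0266), whereas POLA1, POLA2 and PRIM2 were at -0.07, -0.10 and -0.05. PRIM1 overlaps NACA on the same strand, so reads of the shared stretch could not be told apart.

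These polymerase calls rested on all libraries to different degrees. Without co-cultured replicate 2, POLE was at -0.34 (adjusted p = 0.0872), POLD1 at -0.35 (0.121), POLE2 at -0.57 (0.101) and PRIM1 at -0.43 (0.175). Without co-cultured replicate 1, POLD1 was at -0.41 (adjusted p = 0.0798), POLE2 at -0.58 (0.111) and PRIM1 at -0.51 (0.14). PRIM1 also lost its call without control replicate 2 (-0.37, adjusted p = 0.0837) and without control replicate 3 (-0.44, 0.0775), and POLD1 with the replicate block (-0.38, 0.0728).

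Of the 6 genes of the clamp and its loader, 3 rose and 1 fell (66.7% called, beside 33.4% of all genes tested). The median log2 fold change was 0.18. The groups did not overlap for any of the 6, with 5 above and 1 below control. Over all genes, 59.4% did not overlap (29.4% above and 30.0% below). PCNA (chr20:5114953-5126626, minus strand), the ring that tethers the polymerases, was at 215, 176 and 183 CPM in control and 278 and 273 CPM in co-cultured cells. It rose by 0.53 on the log2 scale (SE 0.0958, edgeR adjusted p = 0.00319), to 1.44 times its control level. RFC2 (chr7:74231499-74254458, minus strand) was at 67.3, 64.7 and 64.1 CPM in control and 91.5 and 93.7 CPM in co-cultured cells, a rise of 0.50 (SE 0.0731, edgeR adjusted p = 0.00106). RFC3 (chr13:33818049-33966558, plus strand), a subunit of the same pentamer, moved the other way, from 87.0, 78.7 and 80.8 CPM in control to 56.7 and 58.5 CPM in co-cultured cells. Its log2 fold change was -0.51 (SE 0.081, edgeR adjusted p = 0.00159). The calls of PCNA, RFC2 and RFC3 were kept under all 13 alternative settings. RFC5 was also higher (0.23, SE 0.0751, edgeR adjusted p = 0.0434), and RFC4 and RFC1 were at 0.13 (adjusted p = 0.211) and 0.12 (0.242).

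The ratio of RFC2 to RFC3 transcripts shifted with their opposite movement. Per kb, RFC2 stood to RFC3 at 1.004, 1.07 and 1.03 in the control libraries and at 2.10 and 2.08 in the co-cultured libraries. RFC2 took 24.1% ± 0.371 (SD, n = 3) of the summed level of RFC1-5 in control and 31.2% ± 0.56 (n = 2) with co-culture, and RFC3 took 23.3% ± 1.01 and 14.9% ± 0.347. RFC1 kept to 12.2% and 12.1%. RFC3 overlaps AL161891.1 on the same strand, which had at most 696 counts. RFC5 overlaps WSB2 on the opposite strand, up to 22.2% of its reads were on that strand, and its call held in only 4 of the 13 alternative settings. It was lost without control replicate 2 (adjusted p = 0.0742), control replicate 3 (0.0915), co-cultured replicate 1 (0.23) or co-cultured replicate 2 (0.176), and with the replicate block (0.193), DESeq2, upper-quartile scaling, the filter of at least 1 count and opposite-strand counts subtracted. Without control replicate 1, RFC4 passed the test at 0.16 (adjusted p = 0.0466).

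**Figure D4:**
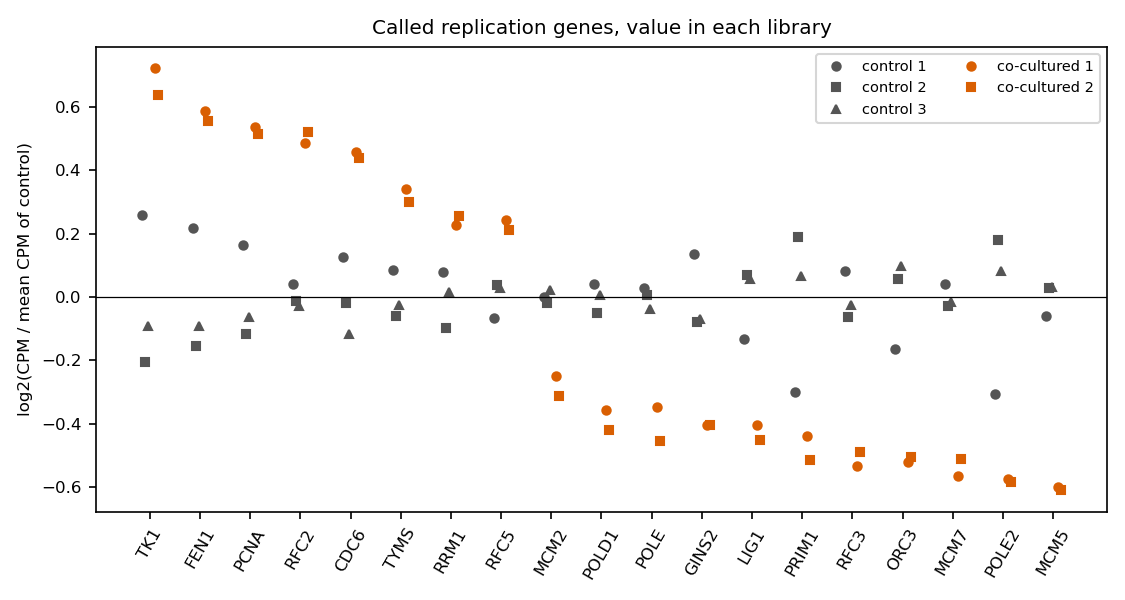
Log2 ratio of each library's CPM to the mean CPM of control (vertical axis) for the 19 genes called (horizontal axis), ordered from the largest rise to the largest fall, with grey symbols for the 3 control and orange symbols for the 2 co-cultured libraries. Control replicate 1 lies nearest to the co-cultured libraries for 12 of the 19 genes, 7 of the 8 that rose and 5 of the 11 that fell. Over all genes called, rises and falls together, it lies nearest for 55.7%.

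At the Okazaki fragment, the flap nuclease and the ligase parted. FEN1 (chr11:61792637-61797244, plus strand), which trims the flap ahead of ligation, was at 95.02, 73.3 and 76.6 CPM in control and 123 and 120 CPM in co-cultured cells. It rose by 0.57 (SE 0.11, edgeR adjusted p = 0.00423), and its call was kept under all 13 alternatives. FEN1 overlaps FADS2 on the same strand. LIG1, the ligase that seals the nick, was at 81.6, 93.9 and 93.1 CPM in control and 67.7 and 65.4 CPM in co-cultured cells. It fell by 0.43 (SE 0.0882, edgeR adjusted p = 0.00577), with -0.44 (adjusted p = 0.0657) without co-cultured replicate 1 and -0.40 (0.0798) without co-cultured replicate 2. FEN1 stood to LIG1 per kb at 3.09, 2.07 and 2.19 in control and at 4.81 and 4.87 in co-cultured cells. RPA1, the large subunit of the single-strand binding protein, was at 128, 127 and 140 CPM in control and 129 and 117 CPM in co-cultured cells, which overlapped (log2 fold change -0.10). RPA2 and RPA3 were at -0.07 and -0.06.

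Nucleotide supply was the group in which 3 of 4 genes rose and none fell (75% called, beside 33.4% of all genes tested). The median log2 fold change was 0.28. TK1 (chr17:78174075-78187233, minus strand), the thymidine salvage kinase of S phase, was at 19.5, 14.2 and 15.3 CPM in control and 26.9 and 25.4 CPM in co-cultured cells. Its log2 fold change of 0.68 (SE 0.142, edgeR adjusted p = 0.00616) was the largest of the 45, a rise to 1.60 times control. Without co-cultured replicate 1 the TK1 value was 0.65 (adjusted p = 0.0675). TYMS, which makes thymidylate, was at 507, 458 and 469 CPM in control and 606 and 588 CPM in co-cultured cells (0.32, SE 0.0817, edgeR adjusted p = 0.0153). RRM1, the large subunit of ribonucleotide reductase, was at 305, 269 and 291 CPM in control and 338 and 345 CPM in co-cultured cells (0.24, SE 0.0822, edgeR adjusted p = 0.048). RRM2, the S phase subunit of the same enzyme, was at 169, 114 and 130 CPM in control and 159 and 155 CPM in co-cultured cells, inside the control range (0.19, edgeR adjusted p = 0.341). Without control replicate 1, RRM2 passed the test at 0.37 (adjusted p = 0.000209).

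The smaller rises of TYMS and RRM1 were the less stable calls. TYMS lost its call without control replicate 2 (adjusted p = 0.0574), control replicate 3 (0.0541), co-cultured replicate 1 (0.124) or co-cultured replicate 2 (0.102), and RRM1 without the same libraries (0.148, 0.0994, 0.175 and 0.246). With the replicate block, the adjusted p was 0.139 for TYMS and 0.217 for RRM1. RRM1 also lost its call with upper-quartile scaling (adjusted p = 0.117) and with opposite-strand counts subtracted, and kept it in 6 of the 13 alternatives. TYMS overlaps ENOSF1 and TYMSOS on the opposite strand, and with unstranded counts its log2 fold change was -0.01 (edgeR adjusted p = 0.944). In the stranded counts, only 1.89% to 3.13% of its reads lay on the opposite strand. The source of the gap between the stranded and unstranded values was not tested. The kit marks strand, and the value given above is for the strand of TYMS. The TYMS rise was thus seen only with counts taken by strand.

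Across the 19 calls, control replicate 1 was the control library nearest to the co-cultured ones in 12 (63.2%), beside 55.7% of all genes called. Without that library, 24 of the 45 passed the test (12 higher and 12 lower), beside 49.5% of all genes, and all 19 calls were kept. With co-cultured replicate 1 or 2 left out, 7 and 8 of the 45 passed, beside 12.8% and 14.2% of all genes. Under all 13 alternatives, 6 calls held, those of MCM5, MCM7, RFC3, PCNA, RFC2 and FEN1. The genes that rose had shorter exon unions (median 2474 bases) than those that fell (4386) or were not called (4488), and their median GC content was 47.6%, 55.6% and 45.6%. In 9883 protein-coding genes of at least 10 CPM, the median log2 fold change was 0.15 in the 1647 shortest (up to 3100 bases) and 0.03 in the 1647 longest, and it ran from 0.05 to 0.09 over 6 bins of GC content. The part of length in the rises was not tested.

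The genes around the fork and the origin, taken from 7 lists of related genes, also held both rises and falls. Of 158 genes tested out of 159 listed, 31 rose and 35 fell (41.8%, beside 33.4% of all genes tested), with a median log2 fold change of 0.03. By list, the share called ran from 28.6% (chromatin assembly) to 60% (origin firing). Among the 15 regulators of origin firing, 4 rose and 5 fell. MCMBP, which binds free MCM subunits, rose by 0.44 (edgeR adjusted p = 0.00247), and MTBP, a partner of the firing factor TICRR, and CCNA2, the S phase cyclin, fell by 0.38 (adjusted p = 0.00486) and 0.50 (0.00661). CDC7, the kinase that fires origins, was at 114, 115 and 111 CPM in control and 112 and 117 CPM in co-cultured cells (log2 fold change 0.02, edgeR adjusted p = 0.891). Its activator DBF4 fell from 31.7, 32.4 and 32.7 CPM to 23.7 and 26.0 CPM (-0.38, edgeR adjusted p = 0.0145). Up to 23.6% of the reads of CCNA2 lay on the opposite strand. Of the 13 genes that control licensing through proteolysis and chromatin, 3 rose and 2 fell. CDC20, an activator of the anaphase-promoting complex, fell by 0.67 (adjusted p = 0.000554), and the deubiquitinase USP37 and the remodeler subunit BAZ1A rose by 0.51 (0.00164) and 0.45 (0.00338).

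Among 40 further fork and checkpoint genes, 4 rose and 9 fell. The topoisomerases TOP2B and TOP2A, which untangle DNA, fell by 0.71 (edgeR adjusted p = 0.000285) and 0.68 (0.000822), and MCM9, an MCM-like helicase outside the ring, by 0.66 (0.00166), with up to 30.3% opposite-strand reads. In chromatin assembly behind the fork, 3 of 14 rose and 1 fell, with the histone chaperones ASF1B at 0.57 (edgeR adjusted p = 0.00615), CHAF1B at 0.29 (0.019) and NASP at -0.45 (0.00349). Of 34 other genes of nucleotide synthesis, 10 rose and 8 fell. SHMT2, the mitochondrial enzyme that feeds one-carbon units, rose from 153, 145 and 155 CPM to 356 and 367 CPM (log2 fold change 1.26, edgeR adjusted p = 2.19e-05). CMPK1, a pyrimidine nucleotide kinase, rose by 0.56 (edgeR adjusted p = 0.00275), and PFAS of purine synthesis fell by 0.65 (0.00229). RRM2B, the reductase subunit used outside S phase, was at 71.2, 73.2 and 77.6 CPM in control and 91.2 and 98.0 CPM in co-cultured cells (0.35, edgeR adjusted p = 0.0085).

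E2F factors and their pocket protein partners are the usual regulators of these genes. Of the 19 tested, 4 rose and 2 fell. E2F1 was at 102, 100 and 95.7 CPM in control and 113 CPM in both co-cultured libraries (log2 fold change 0.18, edgeR adjusted p = 0.0886). RB1 rose by 0.65 (edgeR adjusted p = 0.000989), MYBL2, an E2F target, by 0.64 (0.00716), and the E2F partner TFDP2 fell by 0.67 (0.000582). Of 23 translesion and repair polymerases and their partners, 3 rose and 8 fell. The ligase LIG4 of end joining rose by 0.77 (edgeR adjusted p = 0.00098). LIG3 fell by 0.60 (edgeR adjusted p = 0.00102), with up to 19.9% of its reads on the opposite strand, and XRCC1, the partner of LIG3, rose by 0.49 (0.00177).

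Genes of mitosis, listed for reference, mostly fell. Of 25, 22 fell and none rose (88%, beside 15.0% of all genes), the median log2 fold change was -0.70, and their summed level was 4348 to 5168 CPM in control against 3319 to 3353 CPM in co-cultured cells. CDC25C, the phosphatase of mitotic entry, fell by 1.33 (edgeR adjusted p = 7.12e-05), the kinase TTK by 0.75 (0.000175) and the centromeric histone CENPA by 1.16 (0.000177). BUB1B, NDC80 and KIF11 did not pass. The part of this list's fall in the changes of the replication genes and of the related lists, with CDC20, TOP2A and CCNA2, was not tested. Of the neuroendocrine markers of SCLC, 4 of 14 tested rose and 2 fell, with SYP at 0.57 (edgeR adjusted p = 0.00148) and SCG2 at 0.86 (0.00192). Others were lower: DDC was at 97.0, 66.6 and 67.3 CPM in control and 46.2 and 57.2 CPM in co-cultured cells. DLL3 was at 59.1, 52.9 and 48.7 CPM in control and 41.0 and 43.0 CPM in co-cultured cells.

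Several of the calls named in these lists needed both co-cultured libraries. Without co-cultured replicate 1, the adjusted p was 0.0633 for MTBP, 0.066 for CCNA2, 0.169 for DBF4, 0.0571 for BAZ1A, 0.0516 for NASP, 0.0722 for ASF1B, 0.153 for CHAF1B and 0.056 for MYBL2, with fold changes in the same direction. Without co-cultured replicate 2, it was 0.0707 for MTBP, 0.0819 for CCNA2, 0.065 for DBF4, 0.0592 for NASP, 0.104 for CHAF1B, 0.0689 for MYBL2 and 0.112 for RRM2B. DBF4 was at the threshold without control replicate 3 (adjusted p = 0.05). Without control replicate 1, E2F1 passed the test at 0.20 (adjusted p = 0.00999).

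**Figure D5:**
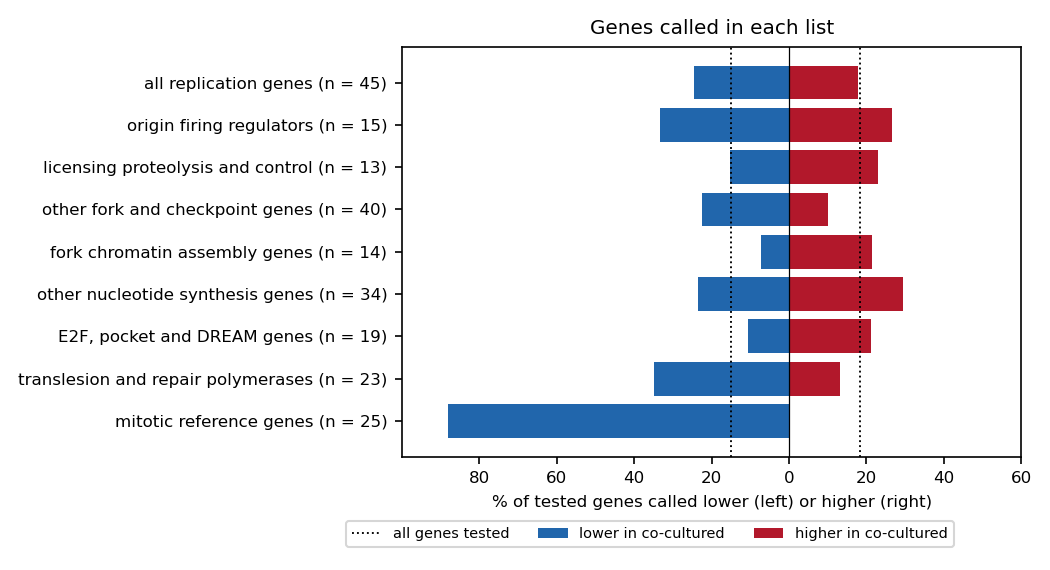
Share of the tested genes of each list that fell (blue, left) or rose (red, right), in percent, with dotted lines at the shares of all genes tested (15.0% and 18.4%). The replication genes and the related lists hold calls in both directions, and the mitotic list holds falls alone, 22 of 25.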

How the data were processed

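RNA-Seq counts of 3 control and 2 co-cultured NCI-H209 libraries were analysed. Per the labels, the libraries were rRNA-depleted and directional. The submitters' processing notes name CASAVA 1.8, STAR 2.6.1b, DESeq2 and GRCh38. The authors deposited raw counts per gene for both strands together and for each strand, and the gene identifiers matched GENCODE release 29. The column of the kit's strand was used, which held 92.3% to 93.1% of the reads assigned to either strand. The authors' table of the comparison holds means, fold changes and p-values of DESeq2 type, and only its gene names were used.

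Genes were kept by filterByExpr, scaled by TMM and compared with edgeR 4.0.16 (quasi-likelihood test, two-sided, Benjamini-Hochberg adjustment over 20360 genes, threshold 0.05) in R 4.3.3. The biological coefficient of variation was 10.2%. Log2 fold changes, their standard errors and 95% intervals came from this fit, which was checked on simulated data. In these libraries 3 counts equal 0.157 to 0.194 CPM, and such floors cover counting error only. Lengths are unions of GENCODE exons. The smallest p of an exact permutation test of 3 against 2 is 0.1, so no such test is given. Replicates differed by more than sampling noise (chi-square per degree of freedom 4.60 to 18.2). This does not tell separate cultures from repeat libraries of 1 culture. Each library was counted as its own replicate.

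Values in every library are given for the 3 genes with the smallest p in each of 8 role groups, for the genes with the highest and lowest level per length, and for genes past the fold criterion. Of each related list, the 3 genes with the smallest p among those called are named, and E2F1, CDC7, DBF4 and RRM2B in any case. The results of some of the genes so chosen are not reported here. The genes and lists were chosen with earlier results of these data known. Promoter windows came from RefSeq. Tried as alternatives were the Wald test of DESeq2 1.42.0, scaling by median ratios or upper quartiles, looser and stricter filters (1 count in any 1 library or 10 in all), the replicate number as a block, leaving out 1 library at a time, unstranded counts, and counts less those of the opposite strand. Plots were drawn with matplotlib 3.10.9.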

Additional observations from a re-analysis of the deposited data

How the results depend on the processing

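Of the 19 calls, 18 were kept with DESeq2, 19 with median-ratio scaling, 17 with upper-quartile scaling, 18 with the filter of at least 1 count, 19 with that of at least 10 counts, 14 with the replicate block, 18 with unstranded counts and 17 with opposite-strand counts subtracted, and none of these settings added a call. With a library left out, the number of replication genes called ran from 7 (without co-cultured replicate 1) to 24 (without control replicate 1), that over the table from 2734 to 9897, and that of the related lists from 20 to 99, in place of 66. Leaving out a co-cultured replicate leaves 1 library in that group, which is then assumed to vary like the control libraries. No gene of the 45 met the fold criterion under any setting run, and all 19 calls kept their direction except TYMS with unstranded counts (-0.0095).

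The replicate numbers pair nothing in the labels, and the same-numbered libraries deviated with correlations of -0.114 and -0.067 over genes. With these numbers as a replicate block, 4824 genes of the table, 14 of the 45 and 43 of the related genes passed, and the calls lost were MCM2, POLD1, RFC5, TYMS and RRM1. The median log2 fold change of the 45 genes was -0.138 with upper-quartile scaling, -0.028 with the replicate block and -0.0095 with unstranded counts, and between -0.0498 and -0.021 with a library left out.

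Signs turned only among genes that had not passed, apart from TYMS. With upper-quartile scaling these were CDC45 (-0.069), MCM4 (-0.049), ORC4 (-0.028) and ORC2 (-0.065). With the replicate block these were CDC45 (-0.038), ORC2 (-0.015), CDT1 (0.0696) and PRIM2 (0.025). With unstranded counts these were GMNN (0.032), ORC6 (0.0093) and PRIM2 (0.0047). CDC45 was at -0.0036 with the filter of at least 10 counts and at -0.0065 with opposite-strand counts subtracted. With a library left out, the values ran from -0.274 to 0.032 for GINS3, -0.0387 to 0.114 for CDC45, -0.159 to 0.0688 for CDT1, -0.0498 to 0.0155 for GMNN, -0.0935 to 0.00498 for ORC6, -0.0127 to 0.0646 for ORC2, -0.244 to 0.0399 for POLA2 and -0.122 to 0.0306 for PRIM2. The causes were not tested. Among the genes not called, the 95% interval was -0.20 to 0.15 for GMNN and -0.56 to 0.29 for GINS3.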
